A study of Homo sapiens with 12 samples.

Results

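Promoter marks of H3K27me3 narrower than 20 kb were described in SH-SY5Y human neuroblastoma cells that express Tau (WT) and in 2 Tau-KO lines. H3K27me3 is histone 3 with 3 methyl groups on lysine 27. The marks were chosen by presence and width of the peaks in both WT samples, and by position. Overlapping peaks of both WT lists (1 bp or more) were merged. An interval was kept when it lay on an autosome, held peaks of both lists, was under 20 kb wide and reached into the 1 kb before or after an annotated transcription start site (TSS) of any gene that encodes a protein. This gave 5893 marks of 103326 autosomal intervals with peaks of both WT lists. Of the other intervals, 96888 were under 20 kb and lay away from such a TSS, and 182 were at a TSS and 20 kb or wider. The choice fixed presence at 100% and a width under 20 kb in the WT samples, so that presence and width in WT against Tau-KO cells are given as a description with no test.

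Chromatin was immunoprecipitated with an H3K27me3 antibody from parental WT cells, without a knock-out, and from the lines 231K and 232P, in which the Tau gene MAPT was knocked out in SH-SY5Y cells by CRISPR-Cas9. Each genotype had 2 biological replicates, each knock-out is represented by 1 line, and a difference between a Tau-KO line and WT cells cannot be told apart from one between lines. Peak names in the lists labelled 232P start with 231P instead, and samples are named here as labelled. In replicates 1 and 2, the lists held 285826 and 222191 peaks (WT), 271413 and 212347 peaks (231K), and 147118 and 199677 peaks (232P). In percent of the deepest library, their estimated relative depth was 100 and 66.6, 94.8 and 68.7, and 68.1 and 56.9 in the same order. The narrowest peaks of each replicate 1 had 175 to 179 bp, and those of each replicate 2 had 240 to 262 bp, so that the replicate numbers differ in a property that the genotype does not set. The list of 232P replicate 1 stood apart as the smallest, and the main differences are also given without it. MAPT itself had 0 such marks, so the marks do not check the knock-out. Absence of a peak means only that the threshold was not reached at the depth of that list, and a lower share of cells with the mark cannot be told apart from a weaker mark in all cells.

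H3K27me3 is written by the Polycomb repressive complex 2 (PRC2), whose catalytic subunit is EZH2, and it marks genes that are kept silent. At genes of development the mark often sits on promoters rich in CpG, a cytosine followed by a guanine, while gene families used in other tissues can carry it over wider stretches of silent chromatin. The mark is read by the Polycomb repressive complex 1, and in neuroblastoma EZH2 is known to hold genes of neuronal differentiation silent.

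The start sites under these marks differed widely in base composition. To show the range, the 250 bases before a start are printed for 4 genes, 5′ to 3′ on the strand of the gene, with each CG in capitals. USP17L23, which encodes a deubiquitinating enzyme of a multicopy family, had the highest ranking mark. HOXB8, a homeobox gene of body axis patterning, is shown at an alternative start that is CpG-rich, under a mark of 907 bp, while its highest ranking mark, of 3151 bp, lies at its canonical start, which is CpG-poor. GAD1, which encodes a glutamate decarboxylase that makes GABA, and the olfactory receptor gene OR2A42 had a mark that was in neither Tau-KO line. USP17L23 and OR2A42 are named by the ranking used throughout, and the other pair was chosen after the values were seen.
USP17L23: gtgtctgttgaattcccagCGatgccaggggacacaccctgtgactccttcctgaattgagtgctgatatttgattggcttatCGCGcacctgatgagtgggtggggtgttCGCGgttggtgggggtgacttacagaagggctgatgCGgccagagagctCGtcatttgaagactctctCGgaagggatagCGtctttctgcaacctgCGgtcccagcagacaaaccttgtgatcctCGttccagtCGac
HOXB8: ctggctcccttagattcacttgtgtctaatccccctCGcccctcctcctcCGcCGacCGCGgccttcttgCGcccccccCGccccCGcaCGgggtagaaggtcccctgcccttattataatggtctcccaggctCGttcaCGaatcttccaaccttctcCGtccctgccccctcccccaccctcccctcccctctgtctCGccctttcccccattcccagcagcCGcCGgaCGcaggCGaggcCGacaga
GAD1: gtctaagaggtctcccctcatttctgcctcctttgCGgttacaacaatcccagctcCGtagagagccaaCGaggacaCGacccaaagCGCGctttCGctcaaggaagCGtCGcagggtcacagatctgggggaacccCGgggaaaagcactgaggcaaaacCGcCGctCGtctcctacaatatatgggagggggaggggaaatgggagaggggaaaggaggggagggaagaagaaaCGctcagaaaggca
OR2A42: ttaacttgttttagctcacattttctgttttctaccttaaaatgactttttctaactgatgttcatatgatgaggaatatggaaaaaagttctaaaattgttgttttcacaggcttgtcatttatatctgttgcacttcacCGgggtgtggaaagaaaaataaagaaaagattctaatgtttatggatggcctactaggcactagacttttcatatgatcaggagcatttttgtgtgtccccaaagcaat
These bases lie in hg38 at chr4:9272114-9272363 on the forward strand for USP17L23, at chr17:48613480-48613729 on the reverse strand for HOXB8, at chr2:170816312-170816561 on the forward strand for GAD1, and at chr7:144239606-144239855 on the reverse strand for OR2A42. They hold 12, 18, 14 and 1 CG, respectively. A mark covered 250, 250, 237 and 250 of the 250 bases in the same order.

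The marks were mostly short and often beside the start rather than on it. Their width had a median of 2387 bp and quartiles of 1148 and 5210 bp, and 74.0% were under 5 kb. Of the 5893 marks, 2750 (46.7%) held a TSS base, and in 50.9% the summit of the higher WT peak lay within 1 kb of the nearest start, with a median distance of 984 bp. The start was the canonical one of a gene for 3145 marks (53.4%) and an alternative one only for 2748. They therefore count as promoter marks in the sense of the window, and not all of them covered a promoter. A single protein-coding gene was assigned to 5708 marks, 2 genes to 175 and 3 genes to 10. Together they touched 2741 of 19103 autosomal protein-coding genes (14.3%), of which 1218 had 1 mark. Marks of 1 gene are not independent, and CACNA1A, a calcium channel gene with many annotated starts, had the most, with 23. Of the 178 genes with a mark of 20 kb or more at a start, 121 also had a narrower one.

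Marks on both sides of the limit of 20 kb had a peak in every sample. The widest marks kept were at IRF4 (a transcription factor of lymphocytes and melanocytes), with 19980 bp, at ANKFN1, with 19968 bp, and at the killer cell receptor gene KIR2DL4, with 19935 bp. The narrowest left out were at the bitter taste receptor gene TAS2R60, with 20038 bp, at the transcription factor gene ONECUT1, with 20063 bp, and at the olfactory receptor gene OR4D9, with 20085 bp. The fold enrichment was 8.71 to 10.4 over the 6 samples at IRF4 and 5.47 to 8.87 at ONECUT1. The IRF4 mark ended before the start, and the summit of its higher WT peak lay 19740 bp from it. At the other end, the narrowest marks were 247 bp at the shared start region of NIPAL1 and CNGA1, 250 bp at KRTAP10-12 and 261 bp at OR8J3, and none of them was in all lists.

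Start sites at these marks were less rich in CpG than other start sites. Over the 500 bases on each side of a start, the observed over expected CpG ratio had a median of 0.381 at the 2351 canonical starts at these marks and of 0.728 at all 19040 canonical starts, and the GC content had medians of 53.8% and 61.4%. A start was called CpG-rich with a GC content of at least 55% and a ratio of at least 0.6. This applied to 35.9% of the canonical starts at the marks, to 60.7% of all, and to 21.6% of the 116 within marks of 20 kb or more. Motifs were searched on both strands from 250 bases before to 50 after the start. GGGCGG was in 38.5% of the windows at the marks and 61.7% of all, and CGCG in 42.7% and 67.5%. TATAAA was in 20.7% and 9.76%, CCAAT in 36.4% and 35.7%, and CACGTG in 5.70% and 8.70%. The motifs were counted separately, and matches of GGGCGG and CGCG can share bases. Taking the start nearest to the summit for each mark, 1378 marks (23.4%) were CpG-rich and 4515 CpG-poor.

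Genes with these marks came from developmental regulators and from families of specialised tissues. Among homeobox genes, 105 of 168 (62.5%) had a mark. Among genes of the forkhead, SOX, T-box, GATA, ZIC and bHLH families of transcription factors it was 50 of 139 (36.0%). The highest shares were found for the olfactory receptors, with 302 of 415 genes (72.8%), and for keratins and keratin-associated proteins, with 103 of 149 (69.1%), and cytochrome P450 enzymes had 28 of 57 (49.1%). The share over all genes was 14.3%, and genes of 1 family often lie side by side, so that their marks are not independent.

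The families that had marks differed in their start sites. Of the 244 marks of homeobox genes, 60.7% were at a CpG-rich start, against 0.457% of the 438 marks of olfactory receptors and 1.17% of the 171 marks of keratins. Potassium channels lay with the homeobox genes, at 60.3% of 58 marks. Secreted morphogens and their antagonists were between them, at 50.8% of 61 marks, and so was the list of forkhead and other transcription factors, at 49.4% of 87. The marks thus lay at starts of different base composition, which neither width nor position of the mark had chosen.

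Neuronal and signalling genes took a middle place. Marks were found at 28 of 93 potassium channels (30.1%), 17 of 63 sodium, calcium, HCN and TRP channels (27%), 16 of 64 transmitter-gated channels (25%), 30 of 107 transmitter and neuropeptide receptors (28.0%) and 6 of 18 genes of neurotrophin and GDNF signalling (33.3%). Among extracellular signals and matrix, they were at 34 of 108 morphogens and antagonists (31.5%), 35 of 107 chemokines, interleukins and TNF family genes (32.7%), 38 of 124 collagens, laminins and matrix proteases (30.6%) and 13 of 68 axon guidance genes (19.1%). Cadherins and protocadherins, with 14 of 100 (14%), and solute carriers, with 55 of 357 (15.4%), were at the level of all genes. Zinc finger genes named ZNF were below it, with 8 of 496 (1.61%).

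Lists of housekeeping genes, ribosomal protein genes and chromatin regulators had almost none of these marks, compared with 14.3% of all genes. None of the 22 housekeeping genes, the 12 genes of PRC2 subunits, the 21 of PRC1 subunits and the 10 of H3K27 demethylases and trithorax proteins had one. These lists are short, and their difference from all genes was not tested. Of 77 ribosomal protein genes, only RPL39L had a mark. RPL39L is a paralog of RPL39 with expression in few tissues, and its mark of 3567 bp was in all lists, with a fold enrichment of 7.94, 5.88, 4.92, 6.25, 4.78 and 5.74. Fold values are given throughout in the order WT, 231K and 232P, replicate 1 before replicate 2. The fold enrichment is the reads at the summit over the local background of the same list, each with 1 added.

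Marks at genes of cell identity were checked against the neuroblastoma origin of the line. Of 7 markers of mesenchymal neuroblastoma 2 had a mark, and of 10 markers of other lineages 2, beside 14.3% of all autosomal protein-coding genes. These lists are too short to be set apart from that share. The mesenchymal markers with a mark were PRRX1, which also had a mark of 20 kb or more, and RUNX1, which had 12 narrower marks. TWIST1, SNAI2, FOSL1, VIM and CD44 had none. At PRRX1 the highest ranking mark had a fold enrichment of 8.04, 8.83, 11.1, 11.8, 8.09 and 8.57, so that no sample lacked it. Among markers of other lineages, ALB and MYOD1 had marks, and COL1A1, PTPRC, CD34, PECAM1, CDH5, EPCAM, GFAP and SOX10 had none. A mark says nothing on expression by itself.

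Marks were ranked by the lower of their 2 WT percentiles, where a percentile is the position of the -log10 q-value of the strongest peak within its own list. The highest ranks were held by multicopy genes and by HOX genes, which had a peak in every list. USP17L23, USP17L24, USP17L18 and TAF11L5 belong to multicopy families, where the placing of reads is uncertain. The mark at USP17L23 was 915 bp wide and had a -log10 q-value of 68.8, 52.8, 49.3, 62.0, 22.1 and 18.6, with both 232P samples below the other 4. Below them came HOXB7 with HOXB9, HOXB3, HOXB4, HOXB8 and HOXA3, all of them homeobox genes of the body axis, and ENSG00000283128. At the mark of 6555 bp shared by HOXB7 and HOXB9, the fold enrichment was 12.8, 13.6, 11.2, 12.9, 9.67 and 7.97. At HOXB4 it was 12.9, 12.6, 9, 10.8, 7.94 and 6.23. At HOXB3, with a mark of 11914 bp, it was 10.7, 14.8, 13.3, 14.8, 8.73 and 11.8. In these HOX marks too, the lowest value was found in a 232P sample, and at HOXB7 with HOXB9 and at HOXB4 both 232P samples were below all others. Since they depend on the depth of a list, they were not tested between genotypes.

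Several regulators of neural development and signalling were among the highest ranking of their lists and had a peak in every list. NOG encodes noggin, an antagonist of BMP ligands, and its mark of 19414 bp had a fold enrichment of 9.31, 10.8, 8.93, 11.3, 6.95 and 9.71. This mark ended before the start, with the summit of the higher WT peak 4197 bp from it. BMP4, a BMP ligand, had 3 marks, the highest ranking with 9.53, 9.25, 6.50, 8.61, 6.96 and 3.74. At the potassium channel gene KCNK2 a mark of 9998 bp had 7.79, 9.89, 6.07, 9.31, 5.75 and 6.48. At NTF3, which encodes neurotrophin 3, values of 7.54, 8.41, 9.02, 6.41, 6.75 and 6.62 showed less spread. The transcription factor gene NEUROD6, which acts in neurons, had 7.95, 7.99, 7.58, 6.11, 5.25 and 8.03. In 4 of these 5 genes the lowest of the 6 values was found in a 232P sample, and at NTF3 it was found in 231K replicate 2.

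Most of the marks were found again in the Tau-KO lines. Of the 5893 marks, 231K replicates 1 and 2 had a peak in 89.6% and 94.7%, and 232P replicates 1 and 2 in 75% and 86.0%. All 4 Tau-KO lists had a peak in 3942 marks (66.9%), compared with 40.2% over all 103326 intervals. No peak in either 231K list was found for 164 marks (2.78%), compared with 7.27% over all intervals. In 232P it was 457 marks (7.75%), compared with 18.3%. A total of 79 marks (1.34%) had no peak in any Tau-KO list, compared with 4.4% over all intervals and 4.61% over those under 20 kb away from a TSS. These shares depended on what counts as present and on which peaks were used. When 50% of a mark had to be covered, 10.8% were missing from 231K and 28.2% from 232P. With peaks of a -log10 q-value of at least 5 only, the rule chose 2546 marks anew, and of these 2.71% and 19.5% were missing. Both lines are set beside the same WT samples, so these counts are not independent. The next most frequent combination after presence in all lists was absence from 232P replicate 1 alone, with 787 marks (13.4%). Of the 182 promoter marks of 20 kb or more, all were in all lists.

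At the level of genes, 64 of 2741 (2.33%) had no mark with a peak in 231K and 143 (5.22%) none in 232P, and 36 genes were among both. Many genes had several marks of which 1 was missing. GAD1 had 4 marks. Its mark of 402 bp was in no Tau-KO list, while that of 2632 bp had a fold enrichment of 5.16, 5.66, 3.87, 7.31, 5.97 and 6.62. The other marks of GAD1, of 1325 and 1098 bp, were missing from 232P replicate 1 alone. RUNX1, a transcription factor gene of blood cells, had 12 marks, of which the 1 of 809 bp was missing from all Tau-KO lists and that of 13324 bp had 5.90, 7.15, 6.15, 7.92, 5.75 and 6.62.

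Wider marks were found more often in the Tau-KO lists, and width in WT cells is a value that chose the marks. Presence needed an overlap of 1 bp only, which a wider mark meets more easily. The part of this rule in the shares was not tested. Among the 1225 marks under 1 kb, a peak was found in 65.2% and 79.8% for 231K and in 45.4% and 53.1% for 232P. Among the 1783 marks of 2 to 5 kb it was 98.3% and 99.8%, and 84.9% and 98.0%. All 506 marks of 10 to 20 kb had a peak in every list. Of the 164 marks without a peak in 231K, 142 were under 1 kb wide, and of the 457 in 232P, 317 were. In 232P replicate 1 the share lay below that of the other 3 Tau-KO samples in each class up to 10 kb. The rank in WT cells gave the same order, and marks of higher rank were also wider. The median width was 880 bp in the 1179 marks of lowest rank and 7215 bp in the 1179 of highest rank. Among the 1179 marks of lowest rank, the shares were 67.4% and 82.1% in 231K and 35.8% and 61.1% in 232P, and among the 1179 of highest rank they were 99.9%, 100%, 99.5% and 99.3%. The lowest ranking 1179 marks held 121 of the 164 marks without a peak in 231K and 318 of the 457 in 232P.

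**Figure D1:**
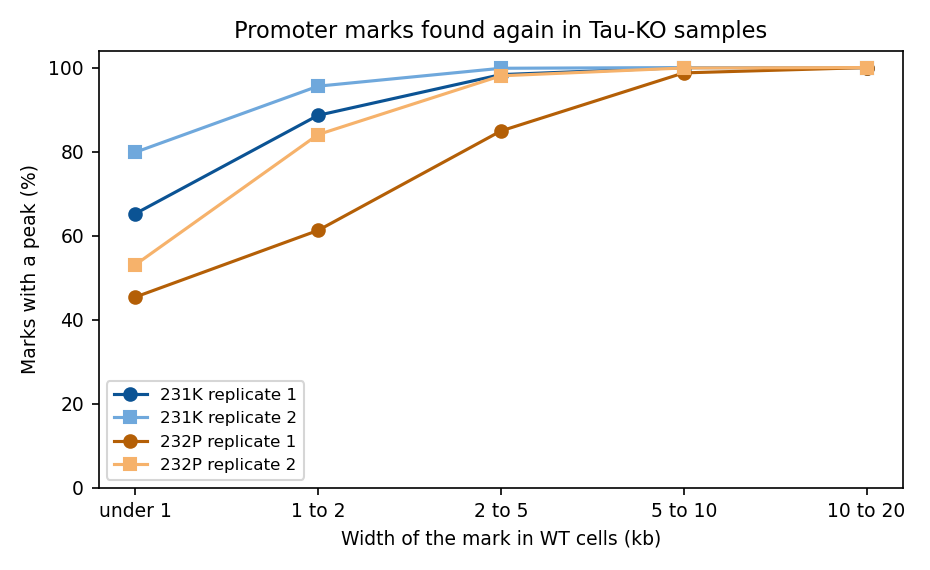
Share of the 5893 promoter marks with a peak in each of the 4 Tau-KO samples, in percent, by the width of the mark in WT cells in kb. Circles are replicates 1, squares are replicates 2, blue is 231K and orange is 232P. All 4 lines reach 100% for marks of 10 to 20 kb, and 232P replicate 1 is the lowest in all narrower classes.

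Promoter marks had a higher share with a peak than intervals away from a start in all 4 Tau-KO samples, and this share depended on width and rank. It exceeded that of the 96888 intervals under 20 kb away from a TSS by 10.9 and 8.11 percentage points in 231K, and by 29.2 and 10.1 in 232P. The mean was 14.6 ± 9.83 (SD, n = 4) percentage points, in 4 of 4 samples (exact permutation test with sign flips, two-sided, p = 0.13, the smallest that this test allows with 4 samples, adjusted p = 0.375). Without 232P replicate 1 the mean was 9.70, and with replicate number 2 only 9.10. Promoter marks were also wider, and at equal widths the difference was 3.11, 3.02, 13.6 and 1.44 in the same order. Its mean was 5.29 ± 5.59 (SD, n = 4; exact permutation test, two-sided, p = 0.13, adjusted p = 0.375). Without 232P replicate 1 it was 2.52, with replicate number 2 only 2.23 and with replicate number 1 only 8.36. It was 8.84 at a -log10 q-value of at least 5 and 11 when 50% of a mark had to be covered. With intervals of equal rank in the WT lists, an alternative chosen after seeing the data, the difference was 0.880, 1.66, 7.77 and -0.490, with a mean of 2.45 (exact permutation test, two-sided, p = 0.25). In this setting 1 of 4 samples had the opposite sign, and most of the mean came from 232P replicate 1. The sign-flip test cannot pass 0.05 with 4 samples, and it takes them as exchangeable though they are 2 replicates of each of 2 lines. The p-values of the 6 main exact tests were adjusted over these after Benjamini and Hochberg, and those of alternative settings were not adjusted.

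The line 231K kept more of the marks than 232P, with a difference that could not pass 0.05 with 2 samples per line. For 231K the share with a peak was 92.2 ± 3.60% (SD, n = 2). For 232P it was 80.5 ± 7.79% (SD, n = 2), and both 231K samples were above both 232P samples. The difference of 11.7 percentage points had p = 0.333 in an exact permutation test, two-sided, the smallest p that 2 against 2 samples allow (adjusted p = 0.4). It was 14.7 within replicate number 1 and 8.77 within replicate number 2. Without 232P replicate 1 it was 6.23. When 50% of a mark had to be covered it was 31.5. With marks chosen anew, it was 31.1 at a -log10 q-value of at least 5 (2546 marks) and 5.99 with equal numbers of strongest peaks (4738 marks). The relative depth, an estimate from the lowest background and the smallest peak width, was lower in 232P, and when peaks were thinned to an equal value of it (called equal depth here) the difference was 7.17 percentage points, with p = 0.667 in the exact permutation test, two-sided, since the groups then overlapped. At equal depth the rule chose 5078 marks anew, and the part of depth in the rest of the difference was not tested.

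Rank and covered length of the marks followed the same order. With missing peaks set to 0, the median percentile of the marks was 82.5 and 89.1 in 231K and 69.4 and 79.3 in 232P, against 86.3 and 85.8 in WT cells. By the choice, no mark lacked a peak in the WT samples. A percentile is a position within a list, and the lists differ in length, so its difference between lines has no level for equal marks. The difference between the lines of 11.4 percentiles had p = 0.333 (exact permutation test, two-sided, n = 2 per line, adjusted p = 0.4), and it was 6.49 without 232P replicate 1. With equal numbers of the strongest peaks per list it was 5.36, and at equal depth 7.46, and the lines then overlapped (exact permutation test, two-sided, p = 0.667 for both). It was larger without WT replicate 1 (20.4) or WT replicate 2 (28.4), and at a -log10 q-value of at least 5 (49.9), each with p = 0.333 (exact permutation test, two-sided). These settings chose other marks, with 7604, 8827 and 2546 marks in this order. For the 3942 marks in all lists, the difference in percentile was 7.05. Peaks covered on average 56.8% and 76.8% of a mark in 231K and 30.5% and 55.9% in 232P, against 71.7% and 87.4% in WT cells, where the marks were drawn. This difference of 23.5 percentage points had p = 0.333 as well (exact permutation test, two-sided, n = 2 per line, adjusted p = 0.4). It was 26.3 within replicate number 1 and 20.8 within replicate number 2. It was 10.9 without 232P replicate 1, 13.6 without 231K replicate 2 and 36.2 without 232P replicate 2, and 37.3 at a -log10 q-value of at least 5. At equal depth it was 21.0, with equal numbers of strongest peaks 21.6 and with merging within 1 kb 19, and the lines then overlapped (exact permutation test, two-sided, p = 0.667 for each). Thinning dropped peaks but left the ends of the kept peaks in place, so the covered length was not matched for depth.

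The fold enrichment was described over the marks with a peak in a sample, from 4417 in 232P replicate 1 to 5893 in WT cells. Marks without a peak drop out of the median, so the samples were not compared over the same marks. Its median over the marks was 4.76 and 5.32 in WT cells, 5.06 and 6.11 in 231K and 4.97 and 5.02 in 232P. In each of the 6 samples, it was above that of intervals away from a TSS, where medians were 3.69 to 4.75, and below that of promoter marks of 20 kb or more, with 6.71 to 9.59. A single peak was held by 49.1% and 76.7% of the marks in WT cells. For 231K it was 36.3% and 60.5% of the marks with a peak, and for 232P it was 36.7% and 46.3%. Each Tau-KO value was below the WT value of its replicate number, while 231K replicate 2 was above WT replicate 1. The marks were drawn from the WT peaks themselves, so this order is a description with no test.

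**Figure D2:**
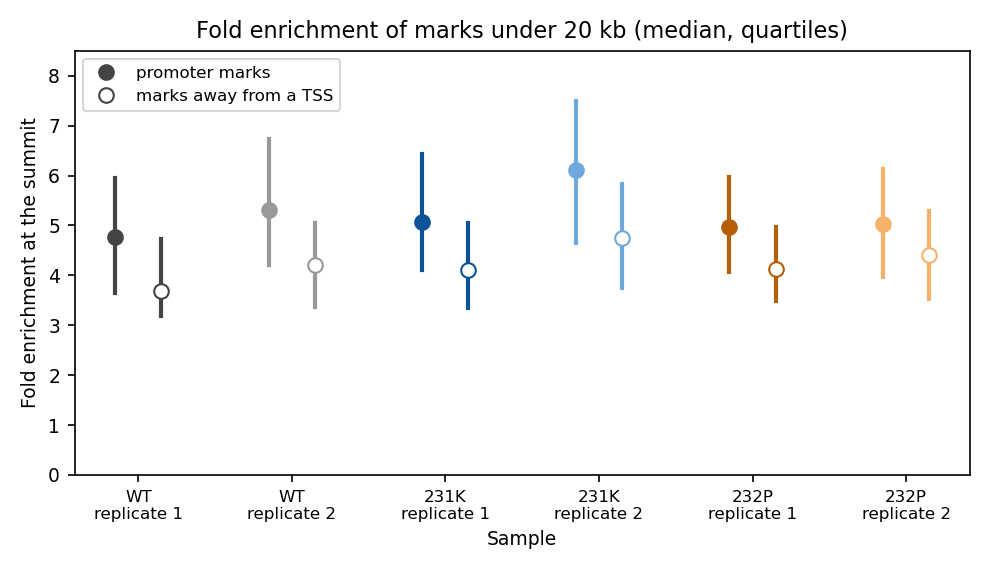
Fold enrichment at the summit of the strongest peak of a mark, on a linear axis, in each of the 6 samples. Filled circles are promoter marks under 20 kb, open circles are intervals under 20 kb away from a TSS, each circle is the median over the marks with a peak in that sample, and the bars span the quartiles. Medians of promoter marks lie between 4.76 and 6.11, above those of the other intervals in each sample.

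When the rule was run with another genotype in place of WT, fewer marks were missing in the reverse direction with the lists as deposited. The 2 lists of 231K gave 5637 promoter marks under 20 kb, of which 106 (1.88%) had no peak in WT cells and 375 (6.65%) none in 232P. Those of 232P gave 4382 marks, of which 30 (0.685%) had no peak in WT cells and 34 (0.776%) none in 231K. The counts for WT against 231K, 2.78% in the one direction and 1.88% in the other, were thus closer to each other than those for 232P against either of the others. At a -log10 q-value of at least 5, 2.71% of the WT marks were missing from 231K and 3.41% of the 231K marks from WT cells, so that the order of this pair turned. It also turned without 231K replicate 1, with 5.26% and 7.60%. At equal depth, the share missing from 232P was 5.38% of the WT marks, and 1.22% of the 232P marks were missing from WT cells. These counts are a description, since each set was chosen for its presence in 1 genotype.

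Widths of the marks were compared with those in WT cells. A merged interval of both lists was present for 5205 marks in 231K and 4013 in 232P. In 231K its width had a median of 1.05 times that in WT cells, 55.2% were wider, and 165 reached 20 kb or more. In 232P the median was 0.685 times, 26.3% were wider and 7 reached 20 kb. The WT width was held under 20 kb by the choice, so the number that passed it can only grow.

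The highest ranking marks without a peak in a Tau-KO line were short. Of the 8 in 231K, 7 were under 1 kb wide. They included WTIP, which encodes a protein that binds the kidney factor WT1, LRAT, an enzyme of vitamin A storage, and GPRC5C, an orphan receptor gene, all of which had a peak in 232P replicate 1. At WTIP, with a mark of 1377 bp, the fold enrichment was 5.56 and 5.46 in WT cells and 6.96 in 232P replicate 1. At LRAT, with 599 bp, it was 5.16 and 5.04 in WT cells and 5.47 in 232P replicate 1, at a CpG-rich start. At WTIP and LRAT the value of 232P replicate 1 was thus above both WT values. OR2A42, with 382 bp, had the highest rank, with 5.96 and 6.30 in WT cells and no peak in any Tau-KO list. OR2A42 and OR2T5 are olfactory receptor genes with similar copies, where the placing of reads is uncertain, and so is that at MBD3L2 and DEFB107B.

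In 232P, the highest ranking marks that were missing were at PRR20B, OR2A42, POTEM, OR2T3, SP110, NPR3, ARHGEF5 and DEFA1B. PRR20B, POTEM, DEFA1B and the olfactory receptors belong to families with near-identical copies. NPR3 encodes the clearance receptor of natriuretic peptides, and the fold enrichment of its mark of 518 bp was 8.34 and 5.46 in WT cells and 6.15 and 5.84 in 231K. SP110, a nuclear body protein gene of immune cells, had a mark of 2883 bp with 4.79 and 5.88 in WT cells and 5.00 in 231K replicate 2. At NPR3 the WT and 231K values overlapped, and at SP110 the mark was also missing from 231K replicate 1.

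**Figure D3:**
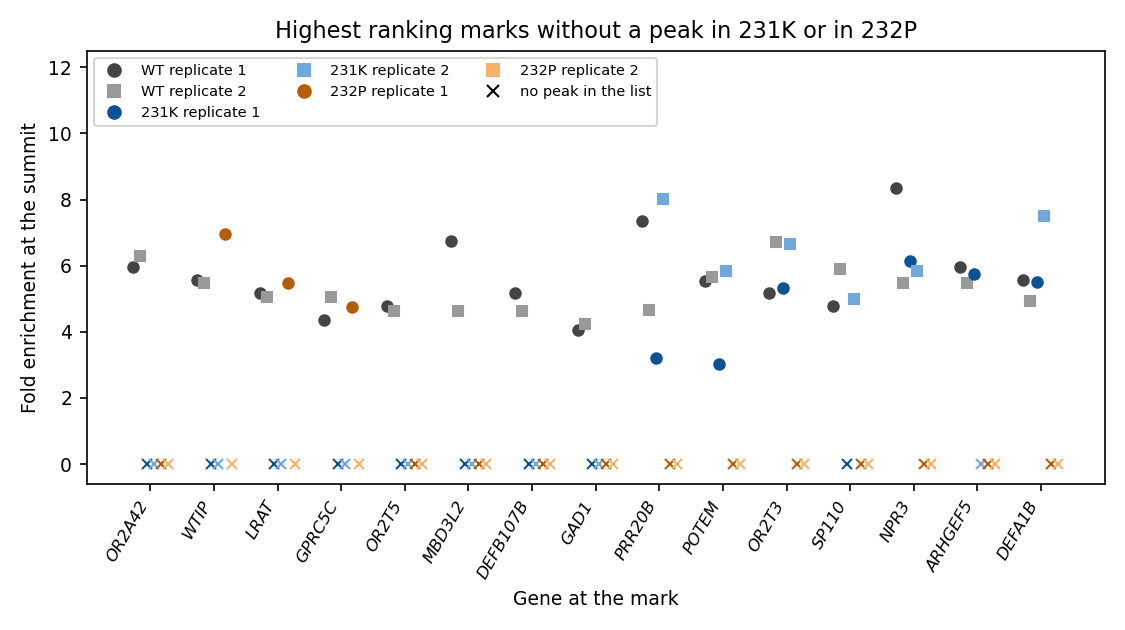
Fold enrichment at the summit, on a linear axis, for the 8 highest ranking promoter marks without a peak in 231K and the 8 without a peak in 232P, with OR2A42 in both sets. Each symbol is 1 sample, circles are replicates 1, squares are replicates 2, and a cross at 0 means that the list holds no peak there. The 2 WT values lie between 4.05 and 8.34, and OR2A42, OR2T5, MBD3L2, DEFB107B and GAD1 have crosses in all Tau-KO samples.

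Among the marks missing from all 4 Tau-KO lists, those of ZIC4, MARCHF1, OLFML1, HOXD12 and SPON1 followed in rank. HOXD12, a homeobox gene of limb patterning, had a single mark, of 529 bp, and its fold enrichment in WT cells was 5.56 and 3.71. SPON1 encodes the matrix protein F-spondin, and its mark of 355 bp had 3.97 and 3.90. ZIC4, a zinc finger gene of the developing cerebellum, had a wider mark, of 2105 bp, with 4.76 and 4.24. All of these were below the median fold enrichment of the 5893 marks in at least 1 WT sample.

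By gene group, marks of developmental regulators were missing at shares above and below those of all marks, which were 2.78% in 231K and 7.75% in 232P. Of the 244 marks of homeobox genes, 9 (3.69%) had no peak in 231K and 7 (2.87%) none in 232P, and 186 (76.2%) were in all lists, compared with 66.9% of all marks. Beside HOXD12, NKX2-8 had no mark left in 231K and POU4F3 none in 232P. At NKX2-8, with a mark of 274 bp, the values were 3.57 and 3.36 in WT cells and 3.98 in 232P replicate 1. POU4F3, a gene of sensory hair cells, had a mark of 483 bp with 4.37 and 4.62 in WT cells and 5.05 and 5.00 in 231K. Of the 87 marks of forkhead, SOX, T-box, GATA, ZIC and bHLH genes, 6 (6.90%) were missing from 231K and 9 (10.3%) from 232P, both above the shares of all marks, while 77.0% were in all lists. NPAS4, a transcription factor gene that neuronal activity induces, had its only mark in no Tau-KO list, with 2.78 and 2.52 in WT cells. FOXA1, a pioneer factor of endoderm, had values of 4.24 and 5.00 in 231K, above the 3.18 and 3.36 of WT cells, and no peak in 232P. TBX21 also had no mark left in 231K, and NEUROD2 none in 232P. Genes with no mark left were named after their values were seen.

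Marks of channels, receptors and adhesion genes were missing in small counts, in 231K at shares near that of all marks. Of the 58 marks of potassium channels, 2 (3.45%) were missing from 231K, at KCNF1 and KCNN3, and 0 from 232P. At KCNN3, a calcium-activated channel gene, the fold enrichment was 3.75 and 2.41 in WT cells and 5.40 in 232P replicate 1. Of the 37 marks of cadherins and protocadherins, 0 were missing from either line, and 62.2% were in all lists, compared with 66.9% of all marks. Among the 70 marks of sodium, calcium, HCN and TRP channels, 2 were missing from each line, and among the 42 of transmitter-gated channels 1 from each, with 61.9% of the latter in all lists. Transmitter and neuropeptide receptors had 58 marks, of which 2 (3.45%) were missing from each line, and 75.9% were in all lists. The receptor gene AVPR1B had no mark left in 231K. Axon guidance genes had 33 marks, of which the 1 at ROBO2, a receptor for SLIT ligands, was missing from both lines, with 2.78 and 3.41 in WT cells. In 231K these shares lay on both sides of the 2.78% of all marks, and in 232P they were below 7.75%. The counts are small, and no difference between a list and all marks was tested.

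Secreted factors and matrix genes had more marks missing from 232P than from 231K, as all marks did, with 7.75% and 2.78%. For collagens, laminins and matrix proteases, 1 of 110 marks (0.909%) was missing from 231K and 6 (5.45%) from 232P, among them the only mark of the protease gene MMP9. CXCL12, a chemokine gene, had its only mark, of 304 bp, in WT cells alone, with a fold enrichment of 5.56 and 2.94. In the list of chemokines, interleukins and TNF family genes, 2 of 62 marks (3.23%) were missing from 231K and 3 (4.84%) from 232P. Of the 69 marks of cytochrome P450 genes, 0 were missing from 231K and 8 (11.6%) from 232P. For genes of the cell cycle and of senescence, all 6 marks were in all lists, compared with 66.9% of all marks. These 6 marks were at MMP3, IL6, CXCL8, IGFBP3 and CDKN2B, which encodes a cyclin-dependent kinase inhibitor and had 2 of them. The higher ranking mark at CDKN2B had 5.56, 5.59, 4.46, 8.10, 4.97 and 5.81, with WT and Tau-KO values that overlapped. At the mark of IL6, shared with STEAP1B, the values were 7.27, 4.82, 5.91, 7.38, 5.31 and 5.61 and overlapped as well.

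Olfactory receptors, the list with the most marks, had 438, of which 17 (3.88%) were missing from 231K and 59 (13.5%) from 232P, compared with 2.78% and 7.75% of all marks, and 239 (54.6%) were in all lists. A peak was found in 86.8% and 91.3% of them in 231K, and in 58.0% and 83.8% in 232P. Keratins and keratin-associated proteins had 4 of 171 missing from 231K and 12 from 232P, and 77.2% in all lists. The marks of olfactory receptors were of lower rank, with a median of 65.5 compared with 78.1 for all marks.

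The order of the lines in rank was described at marks that all lists held. A percentile is a position within a list, and the lists differ in length, so the counts have no level for equal marks. Among the 3942 marks in all lists, both 231K percentiles were above both 232P percentiles in 1277 marks (32.4%), and the reverse was found in 206 (5.23%). The gap was widest at OR3A2 (with OR1R1P), SLAMF6, PDE4DIP, AFP and OR51T1 in the former direction. SLAMF6, a receptor gene of lymphocytes, had a mark of 2581 bp with a -log10 q-value of 6.78 and 9.56 in 231K, 1.80 and 2.05 in 232P, and 2.86 and 6.77 in WT cells. AFP, which encodes the fetal plasma protein of the liver, had 4.77 and 6.09 in 231K, 1.25 and 1.82 in 232P and 4.42 and 3.68 in WT cells. At both genes, the WT values were above those of 232P.

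In the opposite direction, the gap was widest at ABCA8, IHH, C7orf57, SV2B and TMEM132D. IHH encodes Indian hedgehog, a ligand of cartilage growth, and its mark of 1695 bp lay at a CpG-rich start. There the -log10 q-value was 4.49 and 12 in 232P, 3.14 and 3.12 in 231K, and 3.55 and 6.16 in WT cells. ABCA8, a lipid transporter gene, had 4.49 and 5.59 in 232P, 3.12 and 3.18 in 231K and 5.72 and 4.69 in WT cells. SV2B, a synaptic vesicle protein gene, had 3.96 and 3.69 in 232P, 2.48 and 2.75 in 231K and 2.58 and 5.85 in WT cells. At ABCA8, both WT values were above those of 231K, and at SV2B they overlapped those of 231K. These marks were picked for their gap, and no test was made.

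The shares of CpG-rich and CpG-poor marks with a peak were less than 2 percentage points apart in 3 of the 4 Tau-KO samples, and 232P replicate 1 stood apart. In that sample 87.7% of the marks at CpG-rich starts and 71.1% of those at CpG-poor starts had a peak. In 231K the shares were 89.6% and 89.7% in replicate 1 and 94.7% and 94.8% in replicate 2, and in 232P replicate 2 they were 84.5% and 86.4%. The difference, rich minus poor, was -0.129, -0.0484, 16.7 and -1.95 percentage points in this order, with a mean of 3.64 ± 8.74 (SD, n = 4; exact permutation test, two-sided, p = 1, adjusted p = 1). Without 232P replicate 1 it was -0.71. At equal widths it was positive in all 4 samples, with a mean of 5.94 (exact permutation test, two-sided, p = 0.13), and at equal rank in the WT lists the mean was -0.436 (exact permutation test, two-sided, p = 0.875). Both of these settings were chosen after seeing the data. When 50% of a mark had to be covered, the mean was 9.44, with the same sign in all 4 samples (exact permutation test, two-sided, p = 0.13).

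Gene lists differed in how 232P replicate 1 compared with replicate 2, and not all followed the base composition. Of the homeobox marks, mostly at CpG-rich starts, 94.7% had a peak there and 81.6% in 232P replicate 2, the reverse of the order over all marks, with 75% and 86.0%. Of the olfactory receptor marks, nearly all at CpG-poor starts, it was 58.0% and 83.8%. Keratin marks, which were CpG-poor as well, had a higher share in replicate 1 than all marks, with 83.0%, and 88.3% in replicate 2. Cytochrome P450 marks, of which 15.9% were CpG-rich, had 75.4% and 73.9%, and morphogen marks had 85.2% in both. Without olfactory receptors and keratins, the share of CpG-poor marks with a peak in 232P replicate 1 was 72.0%, compared with 71.1% with them. The role of base composition in this library was not tested.

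**Figure D4:**
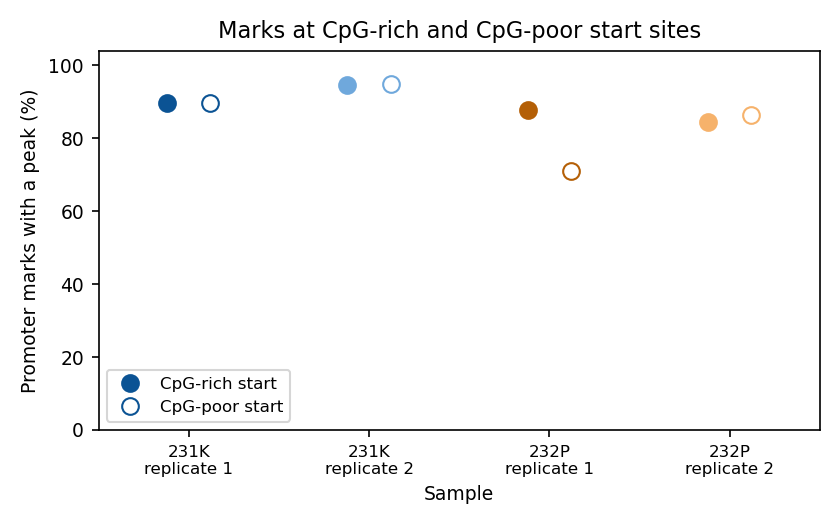
Share of promoter marks with a peak, in percent, in each of the 4 Tau-KO samples, for the 1378 marks at CpG-rich starts (filled circles) and the 4515 at CpG-poor starts (open circles). The circles lie less than 2 percentage points apart in 3 samples and 16.7 apart in 232P replicate 1.

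Marks at canonical and at alternative starts were also compared. Of the 3145 marks at canonical starts, 91.0% and 94.5% had a peak in 231K and 79.7% and 86.1% in 232P. For the 2748 marks at alternative starts only, it was 88.1% and 95.0%, and 69.6% and 85.8%. The difference was again widest in 232P replicate 1. In that sample it was found within both CpG classes, with 88.4% at canonical and 85.6% at alternative starts among CpG-rich marks, and 75.3% and 67.3% among CpG-poor marks.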

How the data were processed

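The authors trimmed the reads, mapped them with BWA to hg38 and called peaks in each library with MACS2, for which a broadPeak setting is named, and the threshold is not given in the sources used here. The deposited files are narrowPeak lists that reach down to a -log10 q-value of 0.824 to 0.842, so they hold peaks with a q-value above 0.05. Peak lists of 6 ChIP samples were used, and the 6 input samples were not analysed here. The deposited lists have 10 columns. Column 7 of the deposited lists is a fold enrichment, a ratio of summit height to local background after adding 1 to each. Columns 8 and 9 are the deposited -log10 p-value and -log10 q-value, and column 5 is a deposited score of 10 times column 9. Peak height and background were recovered from columns 7 and 8 by the Poisson distribution, with whole reads for 100% of peaks within 0.001. The lists hold no read totals, so no interval from counts can be given, and relative depth was estimated as the lowest background divided by the smallest width. Starts and genes are from GENCODE release 44 and sequences from the hg38 genome, and symbols were matched to the same annotation. A mark was present in a sample when 1 of its peaks overlapped it by at least 1 bp.

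The lines were compared by exact permutation tests over samples, and promoter marks with other intervals, or CpG classes with each other, by sign flips over the 4 Tau-KO samples. Values at equal width or rank weight the other set to 10 bins. The p-values measure only the spread between these samples, and the sign flips do not take into account that the 4 samples come from 2 lines. Named are the 10 highest ranking marks, the 8 highest ranking without a peak in each line, the 10 highest ranking without a peak in any Tau-KO list, the 3 widest and narrowest, the 3 just outside the limit, the 5 widest gaps in each direction, and the 3 highest ranking of each of 26 gene lists, of which some are given. The result for 1 list is not reported here. The marks and lists were chosen with earlier results of these data known. Settings varied were the threshold (-log10 q of 5 or more, or a q-value under 0.05), equal numbers of the strongest peaks (136426), equal estimated depth, merging within 1 kb, 50% coverage, a TSS window of 2.5 kb, width limits of 10 and 30 kb, a CpG ratio of at least 0.75, CpG over the 300 bases of the motif window, protein-coding transcripts only, a replicate block, each replicate number alone and leaving out each replicate. Settings that changed the peaks, the WT lists, merging, the TSS window, the transcripts or the width limit chose the marks anew, from 2546 to 8827. Python 3.11.15 with numpy 2.4.6, pandas 2.3.3, scipy 1.17.1 and matplotlib 3.10.9 was used, and the steps were tested on simulated data.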

Additional observations from a re-analysis of the deposited data

How the results depend on the processing

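Of 220 values under alternatives for 13 results, 170 stayed on the same side and within the limits set (1.5 times for a share of marks missing), 46 moved and 4 reversed. No difference between the lines, or between promoter marks and other intervals, changed direction. The difference in presence between 231K and 232P ranged from 5.99 to 31.5 percentage points. The CpG difference was 9.44 with 50% coverage asked (exact permutation test, two-sided, p = 0.13), and it reversed to -1.70 at a -log10 q-value of at least 5, to -1.0 with replicate number 2 only, to -0.71 without 232P replicate 1 and to -0.436 at equal rank in the WT lists. The cause was not tested.

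Shares of marks missing depended on the threshold, which also changed the marks chosen. At a -log10 q-value of at least 5, 19.5% of the WT marks were missing from 232P, 2.04% from all Tau-KO samples, 3.41% of the 231K marks from WT, 18.5% of them from 232P and 0.241% of the 232P marks from 231K. With 50% coverage asked, the WT marks missing from 231K, 232P and both were 10.8%, 28.2% and 7.59%, those of 231K missing from WT and 232P 9.79% and 27.2%, and those of 232P missing from WT and 231K 3.72% and 3.61%. With equal numbers of strongest peaks, 4.81% of the WT marks were missing from 232P, 0.865% from all Tau-KO samples and 1.76% of the 232P marks from WT. The 232P marks missing from WT were 1.22% at equal depth, and those missing from 231K were 1.22% with merging within 1 kb.

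Leaving out each replicate in turn asks for absence from fewer lists or presence in fewer. The WT marks missing were then 5.26% to 10.9% for 231K, 14.0% to 25% for 232P and 1.71% to 6.73% for all Tau-KO samples. Of the 231K marks, 4.88% to 7.60% were missing from WT and 11.8% to 23.5% from 232P. Of the 232P marks, 2.08% to 7.38% were missing from WT and 1.64% to 9.80% from 231K. The CpG difference was -0.71 to 5.50 percentage points.

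With replicate number as a block, the differences are the same by construction, at 11.7 percentage points of presence between the lines, and the smallest exact p is 0.5. Same-numbered samples had similar smallest peak widths, and replicate 2 had the higher mean covered share in all 3 genotypes. Mark by mark, their deviations were nearly unrelated (r across the 5893 marks, which are not independent, of 0.0450 for WT and 231K, 0.0873 for WT and 232P and 0.0950 for the 2 lines), so the numbers were not taken as pairs. The lists' depth limits what an absent peak shows. The settings with equal rank or equal widths of CpG classes, the marks in all lists and canonical starts only were chosen after seeing the data.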
